A study of Mus musculus with 3 samples.

Results

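The genes of the cytosolic translation initiation and elongation factors were followed across 3 leukaemias that arose in the thymus of Mb1-CreDPB mice of the C57BL/6 strain. Members were all genes whose symbol begins with Eif or Eef and a digit, other than Eif2s3y, which left 64 of the 24437 genes in the tables. These mice lack Spib, the gene of the transcription factor Spi-B, in every cell. They also lose Spi1, the gene of the related factor PU.1, in B lineage cells, where the mb-1 (Cd79a) locus drives Cre. All 3 libraries were made from the lymphocyte pellet of a homogenised thymus, without sorting named in the labels, after red cells had been removed. They form 1 group, in which Thy_853 is called leukaemia 1, Thy_854 leukaemia 2 and Thy_857 leukaemia 3. The labels do not say in words that each thymus came from another mouse, no control tissue was analysed here, and the labels read give no age. The spread and every p below therefore describe these libraries. Values in threes are FPKM (fragments per kilobase of transcript, scaled to the size of the library) in leukaemias 1, 2 and 3, and every ± is an SD over these 3 libraries.

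Protein synthesis begins when eIF2 carries the initiator tRNA to the small ribosomal subunit, with eIF1, eIF1A, eIF3 and eIF5 bound to it. The eIF4F complex (the cap-binding protein eIF4E, the scaffold eIF4G and the helicase eIF4A) brings this assembly to the capped end of an mRNA, and eIF5B joins the large subunit at the start codon. During elongation eEF1A delivers each aminoacyl-tRNA and eEF2 moves the ribosome along the mRNA. Lymphoid cells that divide rapidly, such as B cell progenitors, depend on a high rate of protein synthesis, and cells adjust it chiefly through eIF2 phosphorylation and through the proteins that sequester eIF4E.

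The libraries carried the markers of B lineage cells and few of thymic epithelium. Summed FPKM of 8 pan-B markers was 3867, 3072 and 2624, and all 8 were expressed, that is, at FPKM of at least 1 in every leukaemia. Of 10 T cell markers 8 were expressed, with sums of 161, 32.7 and 37.7 FPKM. Leukaemia 1 thus held more T cell transcripts than both others. The 10 myeloid markers, 8 of them expressed, summed to 423, 336 and 126 FPKM. The 8 erythroid markers, 3 of them expressed and Hbb-bs listed at 0 throughout, summed to 143, 211 and 26.3 FPKM. The 8 thymic epithelium markers, 2 of them expressed, summed to 4.55, 4.43 and 5.92 FPKM. In RNA from a mixed cell pellet, fewer cells of a type and less RNA per cell cannot be told apart. No source read here states how many fragments each library held. For members at FPKM of at least 1, the median half-width of the deposited 95% interval was 3.37%, 2.81% and 2.72% of the midpoint in leukaemias 1, 2 and 3, against 5.50%, 5.63% and 5.34% for all such genes.

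Most initiation and elongation factor genes, 52 of 64, had FPKM above the median expressed gene in every leukaemia. Of the 64 members 59 were expressed, against 38.1% of all genes, and 23 averaged at least 100 FPKM, 33 between 10 and 100 and 8 less than 10. The median member stood at 49.95, 48.5 and 56.3 FPKM, against 14.4, 14.2 and 14.7 for all 9300 expressed genes. Members together made up 3.002%, 3.03% and 3.34% of the summed FPKM of leukaemias 1, 2 and 3. The spread of a member over the leukaemias was close to that of other genes, with a median coefficient of variation of 13.4% over the 59 expressed members and 15.2% over all expressed genes. The 5 members that were not expressed throughout were Eef1a2, Eif5a2, Eif4e1b, Eif3j1 and Eif3j2.

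**Figure D1:**
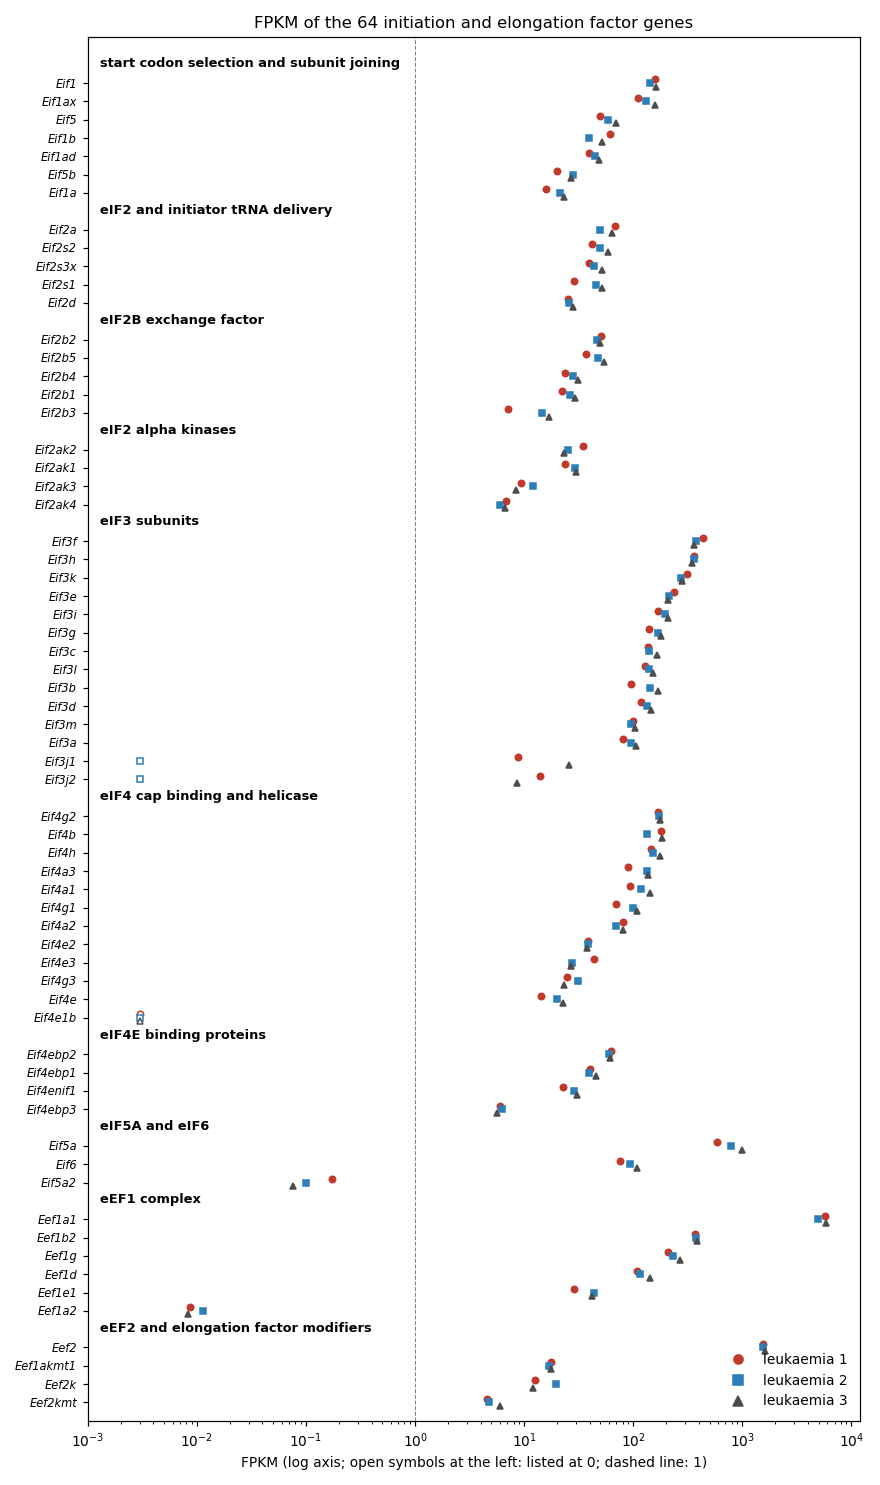
FPKM of each member (log axis) in the 3 leukaemias, grouped by role and ordered within a role by mean. Open symbols at the left mark values listed at 0, and the dashed line marks FPKM of 1. Eef1a1 lies furthest right, and Eef1a2, Eif5a2 and Eif4e1b lie left of the line in all 3 leukaemias.

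Exact zeros and failed estimates concerned 3 members. Eif4e1b, which encodes an eIF4E paralogue known from oocytes, was listed at 0 in all 3 leukaemias with the status OK. Eif3j1 and Eif3j2 encode the loosely bound eIF3j subunit and occupy nearly the same interval of chromosome 2, at 122028580 to 122053632 and 122028583 to 122053631 in mm10 coordinates. Eif3j1 was listed at 8.71, 0 and 25.7 FPKM, and its 0 in leukaemia 2 carried the status FAIL. Eif3j2 was listed at 13.98, 0 and 8.63 FPKM with the status LOWDATA in every leukaemia. Both copies were thus at 0 in the same leukaemia, and in leukaemias 1 and 3 the higher copy was not the same. Fragments of near-identical copies can be assigned to either, and their sum was 22.7, 0 and 34.3 FPKM. An exact 0 in a table without counts can be a failed estimate, so these zeros are not read as absence.

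Elongation factors were the most abundant members. Eef1a1, the main gene of the tRNA-delivering factor eEF1A, stood at 5704, 4981 and 5811 FPKM (5499 ± 451), the highest mean of all genes in the tables. These values lay above their own deposited intervals, whose upper bounds were 5113, 4441 and 5211 FPKM. With interval midpoints the mean was 4905 FPKM. By FPKM, Eef1a1 alone accounted for 44.1%, 39.5% and 41.0% of the sum of the members. Processed copies of Eef1a1 elsewhere in the genome can share its reads. Eef2, the translocation factor, followed at 1529, 1544 and 1627 FPKM (1567 ± 52.5), rank 23 of all genes, and the 3 leukaemias lay within 1.06 times of each other. The nucleotide exchange subunits of eEF1 were less abundant. Eef1b2 stood at 369.97, 372 and 388 FPKM, Eef1g, a structural subunit, at 207, 230.2 and 269, and Eef1d, a second exchange subunit, at 107, 115 and 143. All 3 of these genes were highest in leukaemia 3. Within each library Eef1a1 exceeded Eef2 by 3.51 ± 0.26 times and Eef1b2 by 14.6 ± 1.07 times. Eef1e1, whose product is a scaffold of the tRNA synthetase complex, was at 28.5, 44.04 and 41.4 FPKM.

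Enzymes that modify elongation factors were low and differed in their spread. Eef2k, the kinase that phosphorylates and so inhibits eEF2, stood at 12.7, 19.4 and 12.1 FPKM, with leukaemia 2 above the others. Eef1akmt1, a lysine methyltransferase of eEF1A, was nearly level at 17.6, 16.9 and 17.6 FPKM. Eef2kmt, which methylates eEF2, was the lowest of these genes at 4.58, 4.80 and 6.03 FPKM.

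The starts of the 5 members of highest mean FPKM are shown because they carry the bulk of the factor transcripts. Each line gives 40 bases before and 20 bases from the transcription start of the RefSeq annotation of GRCm38.p6, the assembly that mm10 names, on the strand of the gene, so that base 41 of 60 is the annotated start. Capitals mark a run of at least 5 bases that begins with C, continues with C or T only and begins within 5 bases of the start, the kind of tract known from mRNAs of translation factors and ribosomal proteins.
Eef1a1: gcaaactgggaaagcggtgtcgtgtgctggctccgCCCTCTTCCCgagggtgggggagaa
Eef2: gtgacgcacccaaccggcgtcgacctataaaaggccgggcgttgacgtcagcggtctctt
Eif5a: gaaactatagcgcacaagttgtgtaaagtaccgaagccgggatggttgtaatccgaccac
Eif3f: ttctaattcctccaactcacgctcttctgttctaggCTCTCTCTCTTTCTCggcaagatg
Eef1b2: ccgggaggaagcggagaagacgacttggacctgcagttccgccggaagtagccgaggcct
These lie on the minus strand at chr9:78481705-78481764 for Eef1a1, on the plus strand at chr10:81176591-81176650 for Eef2, on the minus strand at chr11:69921939-69921998 for Eif5a, on the plus strand at chr7:108934375-108934434 for Eif3f and on the plus strand at chr1:63176791-63176850 for Eef1b2. A tract was present at the annotated start of Eef1a1, where it spans 10 bases, and of Eif3f, where it spans 15. An annotated start can lie some bases from the start used in these cells. A missing tract says only that no such run begins within 5 bases of the annotated start. The window of Eef2 ends in the letters ctctt, a run of this kind that begins further downstream and is therefore not marked.

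The same rule found a tract in 12 of the 49 members with a promoter in the RefSeq table, a share of 24.5%, against 18.3% of all 32851 promoters and 20.3% of the promoters of expressed genes. For members the promoter nearest the locus was read, and for expressed genes the first listed, here and in the search that follows. Among the 12, Eif2ak1 was read from a start 54070 bases from the edge of its locus. The median of the mean FPKM was 47.5 for the 12 members with a tract and 59.2 for the 37 without. The median difference in log2(FPKM + 1) of leukaemia 1 minus leukaemia 3 was -0.28 in both sets. The tract was searched on the sense strand only.

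The letters CACGTG, the core of the E-box that Myc and related factors bind, were found in the 300 bases of 10 of the 49 members (20.4%), against 7.15% of all promoters and 11.02% of those of expressed genes. The sequence reads the same on both strands. The 5 members of highest mean FPKM with a match before the start are shown with 20 bases on either side and the match in capitals, since they include abundant factors of different complexes.
Eef2: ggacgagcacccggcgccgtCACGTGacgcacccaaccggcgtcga
Eif3f: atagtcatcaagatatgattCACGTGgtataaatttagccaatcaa
Eif3k: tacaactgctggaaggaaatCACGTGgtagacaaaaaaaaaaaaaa
Eif4h: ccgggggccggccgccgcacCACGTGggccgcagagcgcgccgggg
Eif4a1: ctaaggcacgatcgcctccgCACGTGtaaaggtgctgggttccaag
In GRCm38.p6 these are on the plus strand at chr10:81176568-81176613 for Eef2 and chr7:108934327-108934372 for Eif3f, and on the minus strand at chr7:28981907-28981952 for Eif3k, chr5:134639480-134639525 for Eif4h and chr11:69672587-69672632 for Eif4a1. The match began 43, 68, 44, 96 and 189 bases before the annotated start of Eef2, Eif3f, Eif3k, Eif4h and Eif4a1. The other members with a match were Eif3a, Eif4g1, Eif1b, Eef2k and Eif5a2. A match is a description of the letters and not a binding site.

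Genes of the start codon machinery were all expressed. Eif1, which guards start codon choice, was the highest at 158, 143 and 163 FPKM, and its paralogue Eif1b stood at 61.4, 39.6 and 52.1. The X-linked Eif1ax, which encodes the scanning factor eIF1A, was at 109.8, 129.6 and 158 FPKM, and the autosomal copy Eif1a was the lowest of this group at 16.02, 21.2 and 23.06. Eif1ax thus carried most of the eIF1A transcripts in each leukaemia. Eif5, which stimulates GTP hydrolysis by eIF2, stood at 49.1, 58.5 and 69.97 FPKM. Eif5b, the subunit joining factor, was at 20.04, 28.3 and 26.7 FPKM, and Eif1ad, which encodes a protein with an eIF1A domain, at 39.2, 44.8 and 48.9. Of these 7 genes 5 were lowest in leukaemia 1, and Eif1b was highest there.

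The 3 subunits of eIF2 were at like levels, and each was lowest in leukaemia 1. Eif2s1, the alpha subunit whose phosphorylation slows initiation, stood at 28.7, 45.8 and 51.3 FPKM. Eif2s2, the beta subunit, was at 42.04, 49.9 and 58.5 FPKM, and Eif2s3x, the X-linked gene of the gamma subunit, at 39.3, 43.9 and 51.4. The alpha subunit had the widest spread of the 3, with leukaemia 3 at 1.79 times leukaemia 1. The factors eIF2A and eIF2D can deliver initiator tRNA by other routes. Eif2a was the highest of this group at 68.4, 49.97 and 64.2 FPKM and Eif2d the lowest at 25.5, 25.9 and 27.8.

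Genes of eIF2B, the 5-subunit factor that recharges eIF2 with GTP, were not at like levels. Eif2b2 had the highest mean, at 50.8, 46.6 and 49.5 FPKM, and was exceeded in leukaemias 2 and 3 by the catalytic subunit gene Eif2b5 at 37.2, 47.04 and 54.01. Eif2b4 stood at 23.8, 28.2 and 31.1. Eif2b1 stood at 22.4, 26.5 and 29.4 FPKM. Eif2b3, which encodes the gamma subunit, was the lowest at 7.17, 14.6 and 16.9 FPKM and had the widest spread of the 59 expressed members, with a coefficient of variation of 39.4%. In mm10 coordinates it lies on chromosome 4, 117019408 to 117086852. Leukaemia 1 was lowest for all of these genes other than Eif2b2, and its deposited interval for Eif2b3, from 6.52 to 7.82 FPKM, did not reach those of leukaemia 2, from 13.6 to 15.6, or leukaemia 3, from 15.8 to 17.9.

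The 4 kinases that phosphorylate eIF2 alpha, which are also part of the integrated stress response, were expressed at modest levels. Eif2ak2, the double-stranded RNA sensor PKR and an interferon-induced gene, stood at 34.98, 25.2 and 23.3 FPKM, and leukaemia 1 was above both others. Summed FPKM of 10 interferon response genes was 521, 238 and 171, so these genes too were highest in leukaemia 1, and their part in the Eif2ak2 values was not tested. Eif2ak1, the haem-regulated kinase, stood at 23.8, 29.2 and 29.7 FPKM, above Eif2ak2 in leukaemias 2 and 3. Eif2ak3, the endoplasmic reticulum kinase PERK, was at 9.28, 11.9 and 8.44 FPKM, and Eif2ak4, the amino acid sensor GCN2, was the lowest at 6.81, 5.98 and 6.62.

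Subunit genes of eIF3, the largest initiation factor, did not vary together. Eif3f, Eif3h, Eif3k and Eif3e had the 4 highest means, at 436, 379 and 358 FPKM for Eif3f, at 363, 357 and 346 for Eif3h, at 309, 276 and 278 for Eif3k and at 236, 213 and 208 for Eif3e. All 4 were highest in leukaemia 1. Of the other 8 subunit genes, Eif3m stood at 100.2, 95.3 and 103 FPKM with leukaemia 2 lowest, and the remaining 7 were lowest in leukaemia 1. Among these 7, Eif3i led at 170.2, 197 and 209 FPKM, level with Eif3e by FPKM in leukaemia 3. The deposited intervals there were apart, from 170.1 to 178.4 for Eif3i and from 180.2 to 187.9 for Eif3e. Eif3b, the RNA-binding scaffold of the mobile module, differed most at 95.7, 143.5 and 169.9 FPKM. Eif3a, the largest subunit, was the lowest on average at 80.9, 96.1 and 107 FPKM. Eif3g, Eif3c, Eif3l and Eif3d averaged between 131 and 162 FPKM.

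The balance between these 4 genes and the other 8 differed between libraries. Eif3e, Eif3f, Eif3h and Eif3k held 58.2%, 52.4% and 49.2% of the summed FPKM of the 12 subunit genes other than Eif3j1 and Eif3j2 in leukaemias 1, 2 and 3. The highest of the 12 exceeded the lowest by 5.39, 3.98 and 3.47 times. The set of 4 was chosen after its values were seen, so this is a description with no test. The products of Eif3e, Eif3f, Eif3h and Eif3k are part of the octamer of eIF3, together with those of Eif3a, Eif3c, Eif3l and Eif3m. Of these other octamer genes, Eif3a, Eif3c and Eif3l were lowest in leukaemia 1 and Eif3m in leukaemia 2. Eif3b, Eif3d, Eif3g and Eif3i, outside the octamer, were also lowest in leukaemia 1. A relation of the split to the octamer was not tested.

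**Figure D2:**
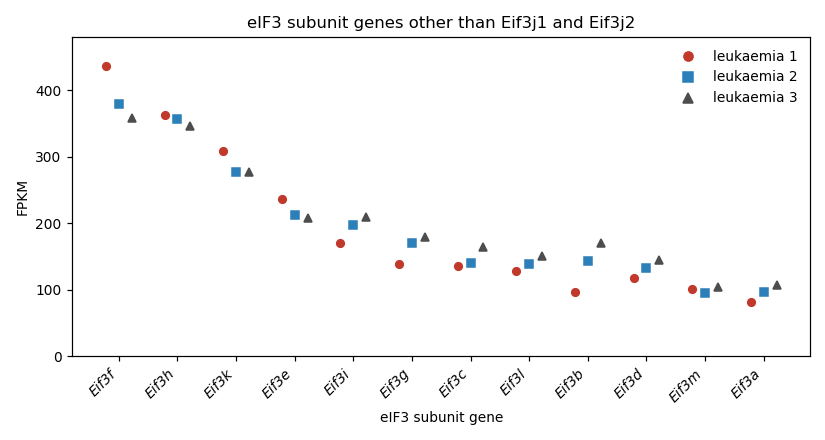
FPKM of the 12 eIF3 subunit genes other than Eif3j1 and Eif3j2 in the 3 leukaemias, ordered by mean. The 4 genes at the left have their highest value in leukaemia 1, and of the other 8 all but Eif3m have their lowest value there.

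Genes of the cap-binding and helicase factors were led by scaffold and helicase partner genes and not by Eif4e. Eif4g2, which encodes a scaffold that lacks the eIF4E binding site, had the highest mean and was nearly level at 169, 174 and 175 FPKM. Eif4b and Eif4h encode RNA-binding partners of the helicase. Eif4b stood at 179, 133 and 185 FPKM, and Eif4h at 145, 152 and 177. By FPKM Eif4b was above Eif4g2 in leukaemias 1 and 3, but the deposited intervals of both genes overlapped there. The helicase gene Eif4a1 was at 93.04, 117 and 142 FPKM, its paralogue Eif4a2 at 80.6, 70.1 and 81.2, and Eif4a3, which acts in the exon junction complex, at 89.8, 134 and 136. Eif4g1, the main scaffold, stood at 70.05, 99.8 and 109 FPKM and Eif4g3 at 24.9, 31.1 and 23.2.

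Cap-binding protein genes were lower and did not share a direction. Eif4e, which binds the cap and is limiting for initiation on many mRNAs, stood at 14.1, 20.02 and 22.8 FPKM and was lowest in leukaemia 1. Eif4e3 was highest there, at 43.8, 27.7 and 27.2 FPKM, and Eif4e2, a paralogue that represses translation, was level at 38.9, 38.8 and 37.9. The ratio of Eif4g1 to Eif4e was nearly the same in each library, at 4.96, 4.99 and 4.77. Of the genes of proteins that sequester eIF4E, Eif4ebp1 and Eif4ebp2 lay above Eif4e in each library and Eif4ebp3 below it. Eif4ebp2 stood at 61.99, 60.3 and 61.2 FPKM, and Eif4ebp1 at 40.1, 39.7 and 45.4. By FPKM, Eif4ebp1 was 2.84, 1.98 and 1.99 times Eif4e. The FPKM of Eif4ebp1 exceeded its own deposited interval in each library, while that of Eif4e lay inside its own. The interval midpoints of Eif4ebp1 were 33.1, 32.3 and 37.3 FPKM, so ratios from midpoints are lower. Eif4enif1, the transporter that carries eIF4E into the nucleus, was at 22.7, 28.7 and 30.3 FPKM, and Eif4ebp3 was the lowest of these genes at 6.00, 6.30 and 5.70.

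Eif5a was the third most abundant member and had a coefficient of variation of 25.7%. Its product carries hypusine and helps ribosomes through difficult stretches and termination. It stood at 589, 790 and 995 FPKM (791 ± 203), and leukaemia 3 was at 1.69 times leukaemia 1. Each deposited interval lay apart from both others, from 589 to 606, from 792 to 811 and from 1001 to 1022 FPKM, although the FPKM itself fell just below its own interval in each leukaemia. The paralogue Eif5a2 was near 0 at 0.175, 0.101 and 0.0765 FPKM. Eif6, which keeps the ribosomal subunits apart, stood at 74.9, 93.8 and 107.9 FPKM, also lowest in leukaemia 1.

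Where a factor has paralogous or paired genes, 12 pairs were compared within each library as the difference in log2(FPKM + 1). The largest was Eef1a1 minus Eef1a2, at 12.41 ± 0.12, with Eef1a2 at 0.0087, 0.0113 and 0.00825 FPKM. Eif5a minus Eif5a2 was 9.44 ± 0.44. These sizes depend on the pseudocount of 1, since the second gene is near 0: with 0.1 and 0.01 they were 15.6 and 18.1 for Eef1a1 and 11.8 and 12.6 for Eif5a. In both factors the second gene is known chiefly from other tissues. Eif1 exceeded Eif1b by 1.60 ± 0.24, Eif4g1 exceeded Eif4g3 by 1.76 ± 0.38 and Eif4a1 exceeded Eif4a2 by 0.58 ± 0.33. Eef1b2 exceeded Eef1d, its fellow exchange subunit, by 1.63 ± 0.18. The first gene was lower in each library for Eif1a minus Eif1ax at -2.66 ± 0.09, Eif4e minus Eif4e2 at -1.01 ± 0.35 and Eif4g1 minus Eif4g2 at -0.91 ± 0.31. It was also lower for Eif4e minus Eif4e3 at -0.75 ± 0.71, which was -0.34 without leukaemia 1, and for Eif4ebp1 minus Eif4ebp2 at -0.54 ± 0.10. In these 11 pairs all 3 leukaemias had the same direction, and p was 0.25 for each in a two-sided exact permutation test that flips signs, or 0.27 after Benjamini-Hochberg adjustment over the 12 pairs. That is the smallest p that 3 libraries allow. Eif4a1 minus Eif4a3 was -0.03 ± 0.14, less than the spread between libraries (the same exact permutation test, p = 1), and leukaemia 2 went against the others.

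**Figure D3:**
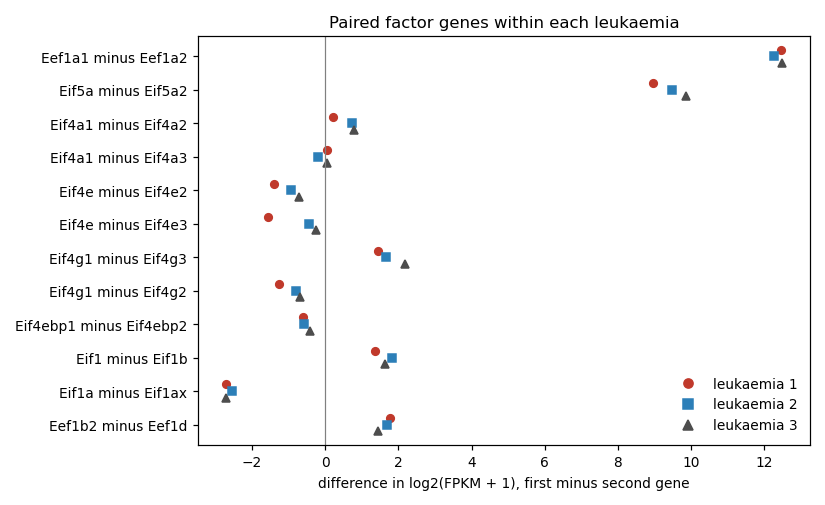
Difference in log2(FPKM + 1) of the first minus the second gene of 12 pairs, 1 point for each of the 3 leukaemias. The 3 points of a pair lie on the same side of 0 in 11 pairs and on both sides for Eif4a1 minus Eif4a3.

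Differences between leukaemias were then counted with the rule that log2(FPKM + 1) differs by at least 1, that FPKM is at least 1 in either leukaemia and that the deposited 95% intervals do not overlap. With 1 library on each side there is no replicate check and no p. In leukaemia 1 minus leukaemia 2, 2 of 64 members differed, against 3.44% of all genes (2.34% higher and 1.1% lower). These were Eif3j1 and Eif3j2, both higher in leukaemia 1 than the zeros of leukaemia 2 described above. In leukaemia 1 minus leukaemia 3, 2 members differed, against 4.19% of all genes (2.84% higher and 1.35% lower), and both were lower. Eif2b3 differed by -1.13 and Eif3j1 by -1.46 on the log2 scale. In leukaemia 2 minus leukaemia 3, 2 members differed, against 1.92% of all genes (1.22% higher and 0.708% lower), and these again were Eif3j1 and Eif3j2 with the zeros of leukaemia 2. Among genes at FPKM of at least 1 in either leukaemia, the shares that differed were 8.16%, 9.98% and 4.68% in the 3 pairs. With Eif3j1 and Eif3j2 left out, the counts were 0, 1 and 0, the 1 being Eif2b3. The difference of Eif3j1 between leukaemias 1 and 3 had the status OK in both, but its fragments can be shared with Eif3j2. The difference of Eif2b3 in leukaemia 1 minus leukaemia 2, -0.94, lay just inside the threshold and was not called. With a threshold of 0.5 in place of 1, 4 members were higher and 7 lower in leukaemia 1 minus 2, 11 in all, against 11.2% of all genes (6.46% higher and 4.69% lower). In leukaemia 1 minus 3, 3 were higher and 14 lower, 17 in all, against 13.6% (7.06% and 6.49%). In leukaemia 2 minus 3, 1 was higher and 2 lower, against 5.82% (3.13% and 2.69%). The rule calls only genes at FPKM of at least 1 in either leukaemia. Of these, 2725 of 10295 differed at 0.5 in leukaemia 1 minus 2, 3313 of 10265 in 1 minus 3 and 1423 of 10047 in 2 minus 3.

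Smaller differences leaned one way. Among the 59 expressed members, 31 were lowest in leukaemia 1 with an interval apart from both others, against 25.6% of all 9300 expressed genes, and 6 were highest there in the same sense, against 25.5%. The 6 were Eif1b, Eif2ak2, Eif3e, Eif3f, Eif3k and Eif4e3. Intervals were narrower for members than for all genes, as given above, so they lie apart more readily. Without regard to intervals, 36 expressed members were lowest in leukaemia 1 (61.0%) and 13 highest (22.0%), against 41.3% and 39.5% of expressed genes. The 31 included 3 of the 5 members of the widest range of log2(FPKM + 1), namely Eif2b3, Eif3b and Eif2s1, where leukaemia 1 minus leukaemia 3 was -1.13, -0.82 and -0.82. They also included Eif5a, Eif4e, Eif4g1, Eif4a1 and Eif4a3, which differed by -0.76, -0.66, -0.63, -0.61 and -0.60. Rescaled to equal medians of expressed genes, 32 members were lowest and 7 highest, against 26.1% and 25.9% of expressed genes. Rescaled to equal totals, 34 were lowest and 6 highest, against 29.1% and 22.8%.

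The median member difference was -0.08 for leukaemia 1 minus 2, -0.26 for 1 minus 3 and -0.12 for 2 minus 3, against 0.00, -0.02 and -0.06 for all expressed genes. Of the 64 members 41, 43 and 49 were lower in these comparisons, by any amount and with genes near 0, Eif3j1 and Eif3j2 included. The share of all genes that were lower was not counted. These counts, and those after rescaling, are therefore not read as a trait of the members. After rescaling to equal medians of expressed genes the member medians were -0.10, -0.23 and -0.08, and 43, 41 and 44 members were lower. By role, the median of leukaemia 1 minus 3 was -0.52 for eIF5A and eIF6, -0.40 for the start codon genes, -0.38 for eIF2 and initiator tRNA delivery, -0.37 for eIF2B and -0.26 for eIF3. It was -0.22 for the eEF1 complex, -0.08 for the eIF4E binding proteins, -0.05 for the cap-binding and helicase genes, -0.04 for eEF2 and the modifying enzymes and 0.08 for the eIF2 alpha kinases. The order of the libraries depended on the measure. The FPKM of the median member, given above, and the summed FPKM of members, at 12931, 12596 and 14173, were lowest in leukaemia 2. The 10 proliferation genes summed to 740 FPKM in leukaemia 1, 1143 in leukaemia 2 and 1446 in leukaemia 3. T cell and interferon genes, given above, were highest in leukaemia 1. The part of these differences in the member values was not tested. The 3 comparisons share libraries and are not independent of each other.

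**Figure D4:**
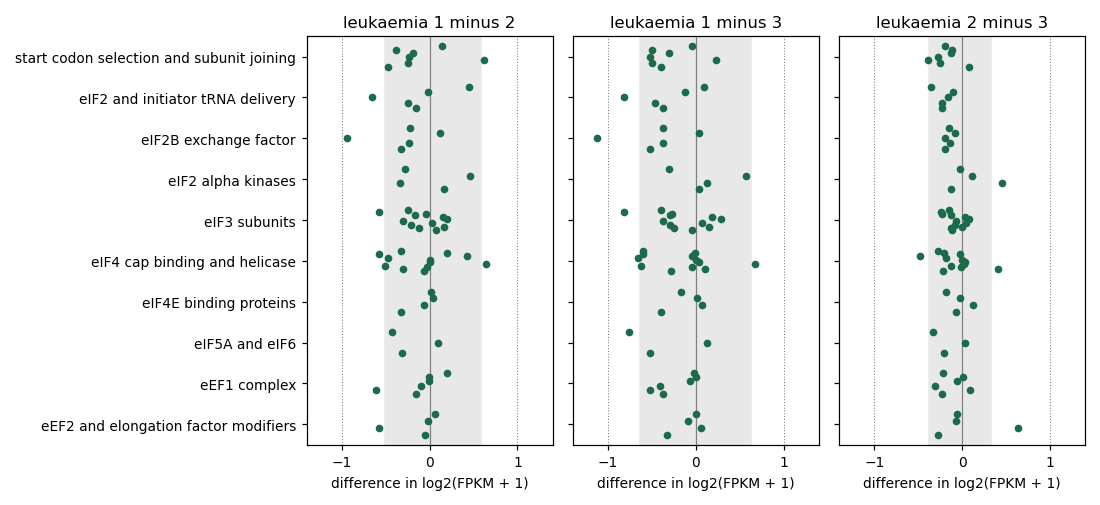
Difference in log2(FPKM + 1) of each member other than Eif3j1 and Eif3j2 for the 3 pairs of leukaemias, by role. The grey band holds the central 80% of expressed genes and dotted lines mark -1 and 1. In leukaemia 1 minus 3 only Eif2b3, at -1.13, lies beyond a dotted line.

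Other genes of the pathway were read for comparison. None of the 8 termination and recycling genes, 8 genes of poly(A) tail binding, 8 hypusine and diphthamide genes and 8 mitochondrial translation factors differed in any pair. The shares over all genes were 3.44%, 4.19% and 1.92% in leukaemia 1 minus 2, 1 minus 3 and 2 minus 3. Of the termination genes Etf1, the release factor, was the highest at 38.7, 51.1 and 63.3 FPKM and Gspt2 the lowest, listed at 0, 0 and 0.00665. Pabpc1, the main poly(A) binding protein, stood at 678, 662 and 837 FPKM and Larp4, the lowest of its list by mean, at 8.48, 11.0 and 12.6. Dohh, which completes hypusine on eIF5A, was at 27.6, 31.8 and 39.6 FPKM, and Dph7, a diphthamide enzyme, at 5.68, 7.53 and 7.01. The median difference of leukaemia 1 minus 3 was -0.25, -0.41, -0.48 and -0.23 in these 4 lists, against -0.02 for all expressed genes. Tsfm, the mitochondrial exchange factor, stood at 23.4, 33.6 and 38.4 FPKM and Mtif3 at 3.51, 3.39 and 3.39.

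Among the kinases and inhibitors upstream of eIF4E, 1 gene differed. Of 13 genes of the mTORC1 pathway and the eIF4 kinases, 1 was higher and none lower in leukaemia 1 minus 3, and none differed in the other pairs. In 1 minus 3, 4.19% of all genes differed, and 9.98% of those at FPKM of at least 1 in either leukaemia. A single call among 13 is therefore not read as a trait of the list. The gene was Ddit4, an inhibitor of mTORC1, at 165 FPKM in leukaemia 1, 92.9 in leukaemia 2 and 63.9 in leukaemia 3. Mknk2, a kinase that phosphorylates eIF4E, had the highest mean, at 149, 163 and 159.6 FPKM, and Tsc1 the lowest mean, at 6.18, 4.93 and 6.49. The list median of leukaemia 1 minus 3 was -0.06. Of 6 genes of the eIF2 alpha phosphatase and the stress response downstream of it, 2 were higher in leukaemia 1 than in each other leukaemia. These were Ddit3 and Atf5, at 20.6 and 12.96 FPKM in leukaemia 1 and listed at 0 in leukaemias 2 and 3, which is not read as absence. Of all genes, 2.34% were higher in leukaemia 1 minus 2 and 2.84% in 1 minus 3. Ppp1cc, the highest of these genes, stood at 154, 126 and 173 FPKM, and Ppp1r15a, the lowest by mean, at 4.38, 3.70 and 3.25.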

How the data were processed

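Each of the 3 libraries has 1 deposited table of FPKM by gene. Per the file headers it also holds the bounds of a 95% interval and a status. The submitters' processing notes name Trim Galore 0.2.8.1, TopHat2 2.0.9, Cufflinks, Cuffdiff 2.1.1 and the build mm10, with no order or settings. FPKM holds no counts, so no count test was used. Rows whose symbol had become a date were dropped, 26 for each library, and loci of 1 symbol were summed, which left 24437 genes. Every member had a single locus. The upper bound was exceeded by the FPKM itself in 33, 33 and 34 members at FPKM of at least 1 in leukaemias 1, 2 and 3 (54.1%, 55.9% and 55.7%, against 27.1%, 28.1% and 28.4% of all such genes), so levels read from interval midpoints differ. The deposited start of each locus was raised by 1, after which the locus edge equalled a RefSeq start in 45 of 49 matched members. In the other 4 the nearest start lay from 17 to 54070 bases away. Members, lists, paired genes and rules were chosen with earlier results of these data known. Named genes were members with a 0, a status other than OK or a call, the 3 highest and the lowest of each role, the paired genes and the 5 of widest range. The remaining members were named as well, so that each is accounted for. The split of eIF3, the counts of members lowest or highest in leukaemia 1 and the E-box search were chosen after seeing the values. A protein comparison of paired genes was planned and is not reported here. Alternatives were other pseudocounts (1 was used), filters, thresholds, rescalings, midpoints, only rows of status OK and each library left out. Python 3.11.15, numpy 2.4.6 and pandas 2.3.3 were used.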

Additional observations from a re-analysis of the deposited data

How the results depend on the processing

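Counts of differing members for leukaemia 1 minus 2, 1 minus 3 and 2 minus 3 rested on Eif3j1 and Eif3j2 and on the threshold. Only rows of status OK gave 0 members for 1 minus 2 and 0 for 2 minus 3, and leaving out Eif3j1 and Eif3j2, an alternative added after seeing the data, gave 0, 1 and 0. A log2 threshold of 0.5 gave 11 for 1 minus 2 and 17 for 1 minus 3, against 11.2% and 13.6% of all genes. Among genes at FPKM of at least 1 in either leukaemia, those called were 2725 of 10295 and 3313 of 10265. A log2 threshold of 2 gave 0 members for 1 minus 3. Pseudocounts of 0.1 and 0.01 brought Eif2b3 past the threshold in 1 minus 2, at -1.02 and -1.03. The median over members of mean FPKM was 50.6, and 45.8 with interval midpoints, and without each library in turn it ranged between 49.6 and 53.5. With midpoints the mean FPKM of 17 members, Eef1a1 among them, moved by more than 1 SD. Rescaling to equal totals, added after seeing the data, moved the median member difference of 1 minus 2 to -0.13. Eif4a1 minus Eif4a3 was 0.18 with midpoints, and without each library in turn it ranged between -0.071 and 0.054. The other 11 pairs kept their direction under all alternatives run. Expressed members numbered 58 to 61 under all alternatives. No paired analysis was possible because all libraries belong to 1 group. The fragments per library, and so the counting error, are known only through the deposited intervals.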

Other observations

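The loci of 18 of the 64 members overlap that of another gene in the tables. Eif4a2, Eif3a, Eef1b2, Eef2, Eif4g1 and Eif5 overlap small nucleolar RNA genes, and Eif2a, Eif5b, Eif2ak1 and Eef2kmt overlap protein-coding genes such as Serp1, Rev1, Aimp2 and Alg1. No source read here says whether counting used strand, so reads of such partners cannot be told apart. Members with the steadiest levels over the 3 leukaemias were Eif4e2, Eif4ebp2 and Eif4g2, with coefficients of variation of 1.42%, 1.42% and 1.72%.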
